A study of Mus musculus with 6 samples.

Results

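The cell cycle and proliferation genes described here were a list of 54, of which 22 act in DNA replication and 32 in mitosis. They were taken by symbol from a count table of 56262 genes, and every one of the 54 was in the table and had enough reads to be among the 17120 genes tested. The table came from bulk RNA-seq of whole lung from 3 R/R and 3 WT mice. R/R mice carry RBM47 K329R and K332R on both alleles, a knock-in made on the C57BL/6 background in every cell of the body, and WT mice were their littermates. RBM47 is an RNA-binding protein to which the ubiquitin-like protein ISG15 is attached. The paper reports K329 as the acceptor lysine, and in mouse RBM47 it ascribes a further ISG15-modified band to K332. All mice were 8 weeks old and received no treatment. Libraries held 16501092 to 18141067 counted read pairs on genes. The genotype itself cannot be read from gene counts, and Rbm47 mRNA had a log2 fold change of 0.10 in R/R against WT lungs (SE 0.08, adjusted p 0.660, edgeR).

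A dividing cell copies its DNA in S phase and separates the copies in mitosis, and the genes for these tasks are switched on in a fixed order. E2F factors turn on the replication genes at the end of G1, when the MCM helicase has been loaded on origins by Cdc6 and Cdt1 and is about to be fired. The mitotic genes follow in G2, when the B-MYB and FOXM1 complexes act on promoters that carry a cell cycle homology region (CHR), often beside CCAAT boxes. Adult lung holds few dividing cells, among them endothelial, epithelial and immune cells. Bulk RNA cannot tell fewer dividing cells from less RNA per dividing cell.

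Promoter letters of both phases are shown as background, and their relation to the fold changes was not tested. RefSeq promoter windows (GRCm38.p6, 250 bases before the start to 50 after) were at hand for 45 of the 54 genes, 19 for replication in 21 windows and 26 for mitosis in 28 windows. The CHR letters TTTGAA or TTCGAA, on either strand, were in 24 of 28 mitosis windows (85.7%) and in 4 of 21 replication windows, against 19.2% of all 32817 windows. A CCAAT letter run was in 78.6% of mitosis windows and 71.4% of replication windows, against 37.4% of all windows. E2F letters (TTTCCCGC or TTTCGCGC or TTTGCCGC or TTTGGCGC, either strand, overlaps allowed) were in 7 of 21 replication windows (33.3%) and in 2 of 28 mitosis windows (7.14%), against 2.26% of all windows. These are letter matches and not measured binding.

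The windows of 4 mitotic genes and of Mcm6, a replication gene, are printed 5′ to 3′ on the strand of the gene, with CHR, CCAAT and E2F letters of either strand in capitals (ATTGG is CCAAT read on the other strand). All 5 genes lie on the minus strand. The windows are Mki67 at chr7:135716330-135716629, Top2a at chr11:99024140-99024439, Cenpf at chr1:189688037-189688336, Cdk1 at chr10:69352863-69353162 and Mcm6 at chr1:128359656-128359955.
Mki67: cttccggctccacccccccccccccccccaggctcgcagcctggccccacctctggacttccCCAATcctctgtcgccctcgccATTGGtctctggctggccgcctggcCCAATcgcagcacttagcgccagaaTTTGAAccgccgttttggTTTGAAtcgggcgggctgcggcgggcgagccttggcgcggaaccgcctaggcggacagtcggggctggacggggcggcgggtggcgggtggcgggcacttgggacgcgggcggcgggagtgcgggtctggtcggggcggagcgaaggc
Top2a: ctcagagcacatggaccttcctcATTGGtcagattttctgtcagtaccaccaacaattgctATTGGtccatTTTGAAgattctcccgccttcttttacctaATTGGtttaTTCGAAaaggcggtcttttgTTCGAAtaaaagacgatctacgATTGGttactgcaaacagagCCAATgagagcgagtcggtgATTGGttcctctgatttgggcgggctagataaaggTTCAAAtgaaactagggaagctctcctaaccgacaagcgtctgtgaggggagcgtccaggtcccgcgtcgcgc
Cenpf: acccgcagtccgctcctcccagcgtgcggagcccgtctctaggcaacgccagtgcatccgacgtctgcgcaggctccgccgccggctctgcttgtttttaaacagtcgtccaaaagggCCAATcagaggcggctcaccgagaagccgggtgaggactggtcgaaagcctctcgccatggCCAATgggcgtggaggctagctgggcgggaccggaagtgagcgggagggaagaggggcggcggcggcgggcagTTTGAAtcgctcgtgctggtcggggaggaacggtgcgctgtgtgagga
Cdk1: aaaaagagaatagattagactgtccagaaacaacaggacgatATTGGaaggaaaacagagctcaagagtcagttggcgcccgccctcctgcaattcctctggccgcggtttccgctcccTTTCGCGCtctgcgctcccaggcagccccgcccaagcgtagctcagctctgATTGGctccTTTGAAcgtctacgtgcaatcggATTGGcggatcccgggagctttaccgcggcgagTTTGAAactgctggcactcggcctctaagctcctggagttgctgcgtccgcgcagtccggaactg
Mcm6: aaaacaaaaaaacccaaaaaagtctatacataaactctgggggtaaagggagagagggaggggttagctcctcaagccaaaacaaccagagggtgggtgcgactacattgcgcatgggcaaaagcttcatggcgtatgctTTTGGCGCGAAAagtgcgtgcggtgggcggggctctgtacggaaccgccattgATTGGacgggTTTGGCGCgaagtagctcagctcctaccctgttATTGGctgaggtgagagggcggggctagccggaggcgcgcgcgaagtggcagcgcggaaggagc
With the start at 0, the CHR letters of Mki67 begin at -116 and -98, downstream of 3 CCAAT runs. Top2a holds 4 CHR runs and 6 CCAAT runs. In Cenpf the CHR letters begin at 2, just after the start. Cdk1 holds 2 CHR runs and 3 CCAAT runs, and also E2F letters at -131. Mcm6 holds E2F letters at -110, -106 and -47, of which the first pair overlap, and no CHR letters.

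The comparison asked how the genes of each phase differed between R/R and WT lungs. All 32 mitosis genes had a log2 fold change below 0 in R/R lungs, with a median of -0.53 and a range from -0.99 (Cenpf) to -0.12 (Ccnf). Of all genes tested 48.8% were below 0, and their median was 0.0045. The 22 replication genes had a median of 0.01, with 10 below 0 and 12 above, and ranged from -0.45 (Gins2) to 0.37 (Cdc6). The fold changes are from edgeR's quasi-likelihood fit with TMM scaling.

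Single genes rarely passed the test. At a Benjamini-Hochberg adjusted p of 0.05 over all genes tested, 2 mitosis genes, Mki67 and Top2a, fell in R/R lungs (1.10% of all genes were called lower). No member rose in this test, in DESeq2 or in limma-voom (0.648% of all genes were called higher). At an unadjusted p of 0.05, 20 of 32 mitosis genes were lower (7.68% of all genes), and 2 of 22 replication genes, Pcna and E2f1, were higher (6.54% of all genes). In 18 mitosis genes every R/R lung lay below every WT lung (9.50% of all genes). Among replication genes this held for Ccne1 and Gins2, and the reverse held for Pcna and E2f1 (9.17% of all genes).

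**Figure D1:**
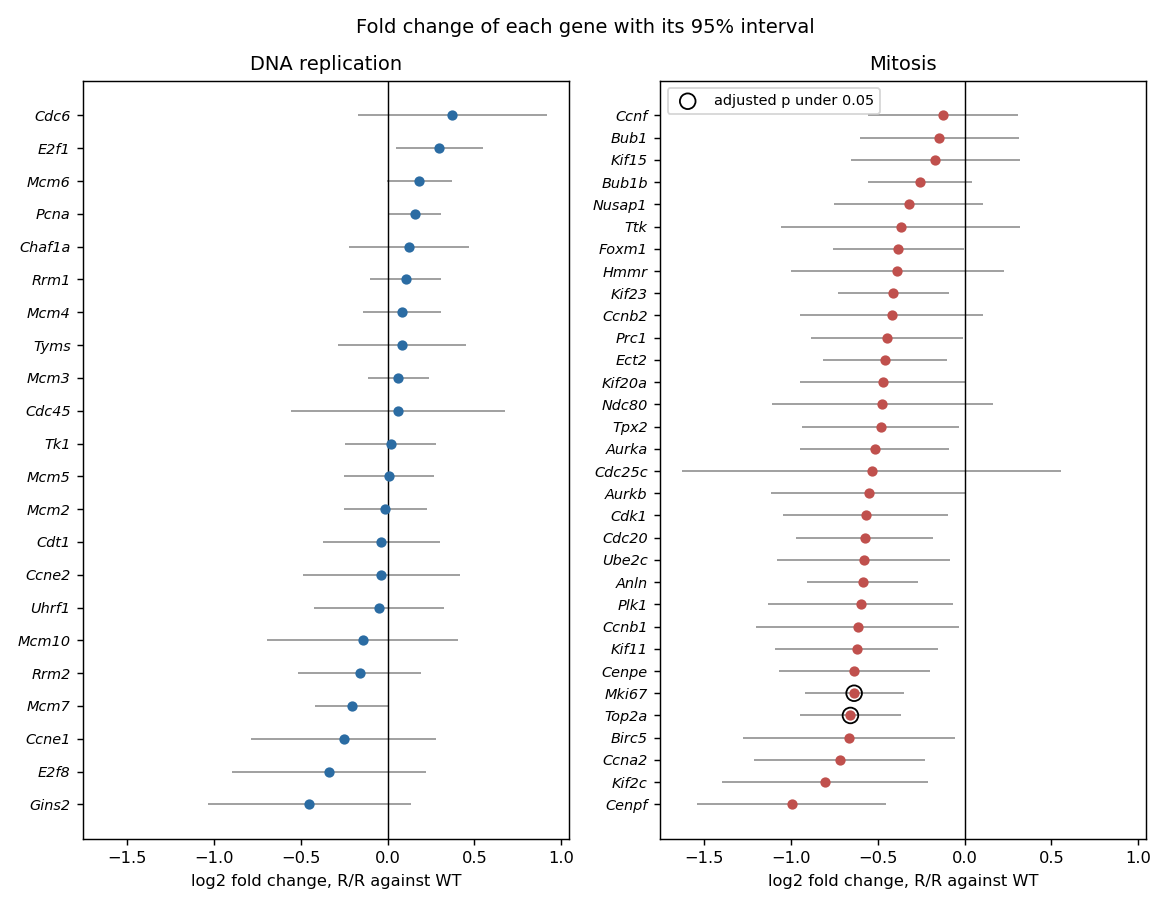
Log2 fold change of each gene in R/R against WT lungs (x axis) with its 95% interval from edgeR, for 22 replication genes (left) and 32 mitosis genes (right), ordered by value. All 32 mitosis points lie left of 0 while replication points lie on both sides. Circles mark Mki67 and Top2a, the genes with an adjusted p under 0.05.

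Summed over the 32 mitosis genes, expression was 133, 144 and 140 CPM in the R/R lungs, and 191, 231 and 175 CPM in the WT lungs. CPM express each gene as a share of the counts of its lung, after TMM scaling, and lungs are given here and below in the order of their replicate numbers. The means were 139 ± 5.39 (SD, n = 3) and 199 ± 28.7 (SD, n = 3), 30.2% lower in R/R, and the groups did not overlap. Mki67 and Top2a made up 21.4% to 27.0% of the sum, and without them the means were 106 ± 1.79 and 148 ± 21.8 CPM (SD, n = 3). The sum of the replication genes was 311, 321 and 322 CPM in R/R lungs and 305, 317 and 294 CPM in WT lungs, and these groups overlapped.

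Set against replication in the same lung, the mitosis sum was 42.8%, 44.8% and 43.4% of the replication sum in R/R lungs. In WT lungs it was 62.5%, 72.8% and 59.6%. The share was lower in each R/R lung than in each WT lung, and within WT it spread more widely, with WT replicate 2 at the top.

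**Figure D2:**
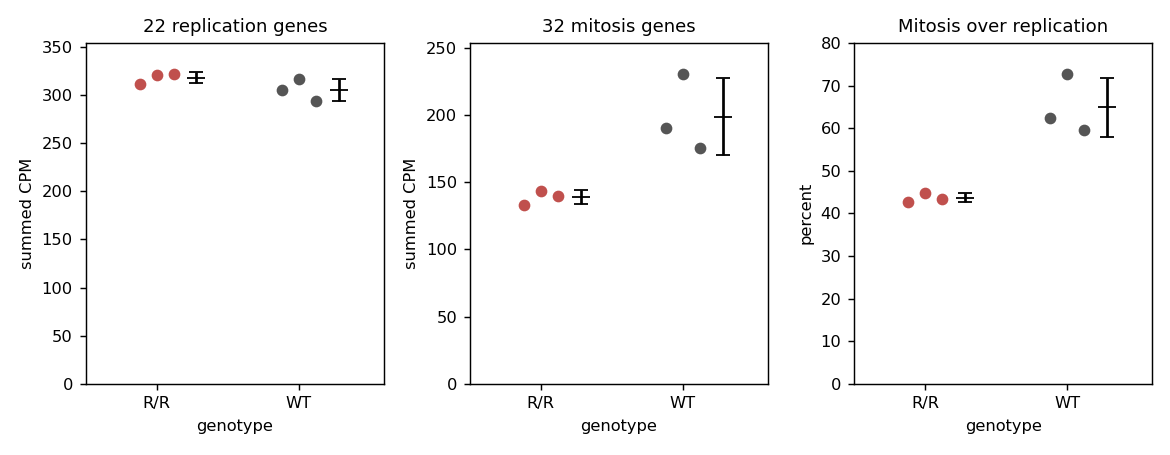
Summed CPM of the 22 replication genes (left) and of the 32 mitosis genes (middle), and the mitosis sum as a percent of the replication sum (right), with 1 point per lung and mean ± SD beside the points. Replication sums of R/R and WT overlap, while R/R lungs sit at 133 to 144 CPM for mitosis and WT lungs at 175 to 231 CPM.

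WT replicate 2 stood apart. It was the highest of the 6 lungs in 25 of 32 mitosis genes, whereas it was the highest in 15.1% of all genes tested, and its median deviation over the mitosis genes was 0.49 (log2 CPM minus the mean of the lungs), against 0.16 and 0.13 in WT replicates 1 and 3 and -0.24, -0.24 and -0.22 in R/R replicates 1, 2 and 3. Without this lung, 30 of 32 mitosis genes were still below 0 (49.5% of all genes), with a median of -0.38. Then 6 of them had an unadjusted p under 0.05 (6.20% of all genes), and in 18 the R/R lungs lay below both other WT lungs (13.7% of all genes). No mitosis gene passed the adjusted test without it.

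**Figure D3:**
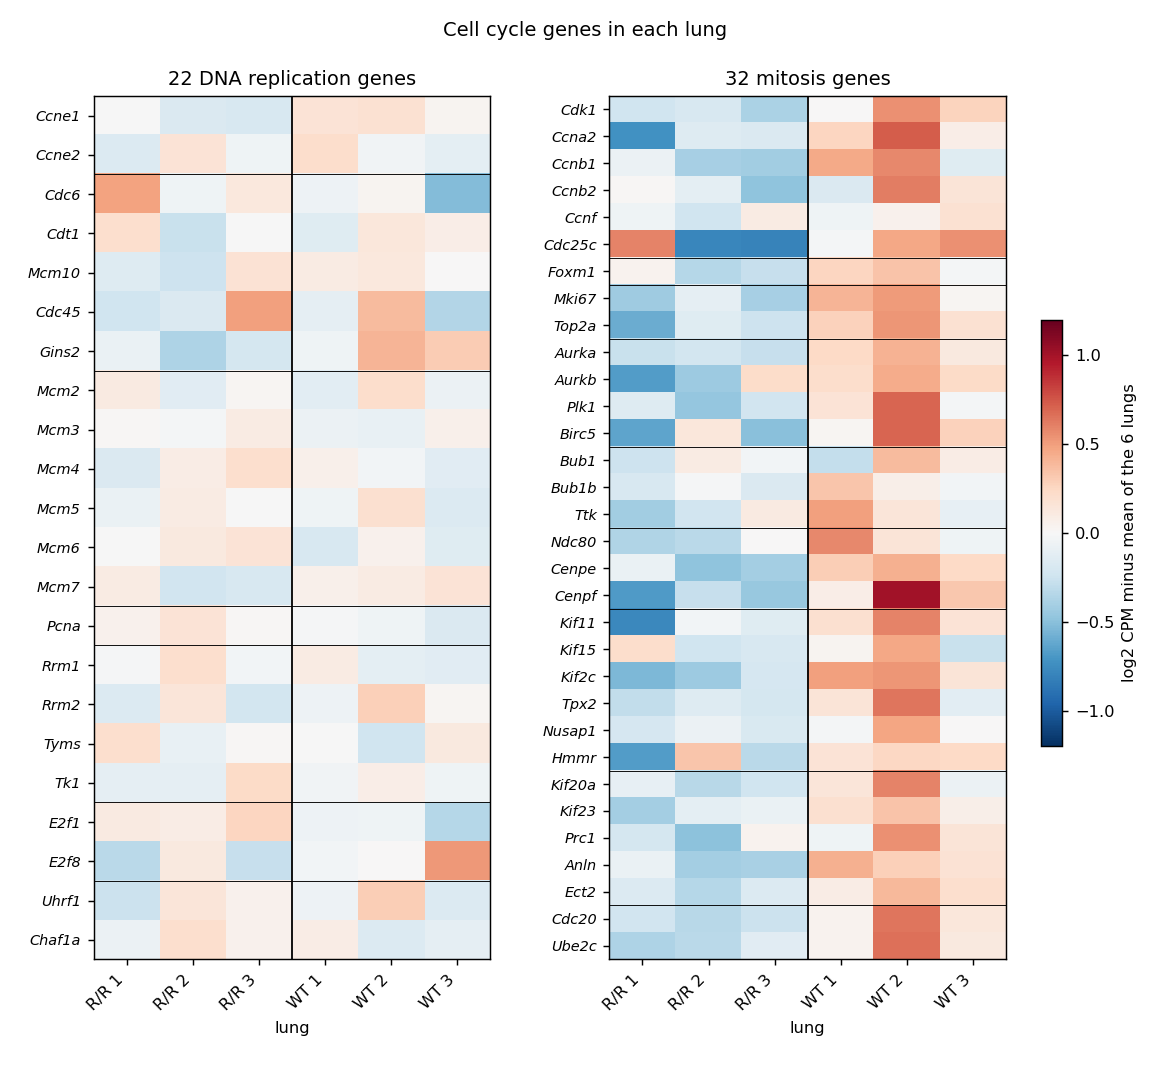
Deviation of log2 CPM from the mean of the 6 lungs (colour) for each gene (rows, grouped by role between the lines) in each lung (columns). The mitosis panel is mostly blue in R/R lungs and red in WT lungs, with WT 2 the reddest, and the replication panel has no such split.

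Mki67 encodes the Ki-67 protein that coats mitotic chromosomes and is the usual marker of cycling cells. Its gene (ENSMUSG00000031004.8) lies on chr7:135689784-135716361 (GRCm38, minus strand). Mki67 was at 17.7, 22.1 and 18.1 CPM in R/R lungs and at 31.8, 33.9 and 24.2 CPM in WT lungs. The highest R/R lung was below the lowest WT lung. Mki67 fell by 0.64 on the log2 scale (SE 0.13, adjusted p 0.0366, edgeR).

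Top2a encodes topoisomerase II alpha, which untangles sister chromatids. The gene (ENSMUSG00000020914.17) lies on chr11:98992943-99024189 (GRCm38, minus strand). Top2a was at 10.8, 14.7 and 13.7 CPM in R/R lungs and at 19.7, 23.6 and 18.4 CPM in WT lungs, with no overlap. It fell by 0.66 on the log2 scale (SE 0.13, adjusted p 0.0353, edgeR). For both genes the exact permutation test gave 0.1, which is the smallest p that 3 against 3 lungs allow. Neither call held when 1 lung was left out, unless that lung was WT replicate 3. With 1 of the other 5 lungs left out, the adjusted p ranged from 0.0640 to 0.142 for Mki67 and from 0.0699 to 0.132 for Top2a (edgeR).

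Kinetochore genes had a median of -0.64, and in 2 of 3 of them R/R lay below WT without overlap (9.50% of all genes). Cenpf, a large protein of the outer kinetochore, had the lowest fold change of all members. It was at 2.72, 3.59 and 3.18 CPM in R/R lungs and at 4.62, 8.78 and 5.44 CPM in WT lungs. The groups did not overlap, but WT replicate 2 was well above the other lungs. The log2 fold change of Cenpf was -0.99 (SE 0.25, adjusted p 0.0751, edgeR). It passed at an adjusted p of 0.0126 in DESeq2, 0.0103 in edgeR's exact test and 0.0289 with the replicate number as a block in edgeR. It also passed without a filter on low counts and without WT replicate 3. It did not pass in limma-voom (adjusted p 0.110) or with any other lung left out. Cenpe, the kinesin that carries chromosomes to the spindle equator, had a log2 fold change of -0.64, also without overlap. Ndc80, which binds kinetochores to microtubules, had -0.47, and its groups overlapped.

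Among CDK1 and its cyclins, with Ccnf and the CDK1 activator Cdc25c, 6 of 6 genes were below 0 (median -0.55). Cdk1, the kinase that drives entry into mitosis, was at 2.66, 2.75 and 2.41 CPM in R/R lungs and at 3.16, 4.64 and 3.81 CPM in WT lungs. These lungs did not overlap, and the log2 fold change was -0.57 (SE 0.22, adjusted p 0.252, edgeR). Ccna2, or cyclin A2, acts in S phase and again at the start of mitosis. It was at 2.72, 4.07 and 4.01 CPM in R/R lungs and at 5.41, 7.51 and 4.80 CPM in WT lungs. Its groups did not overlap either, at a log2 fold change of -0.72 (SE 0.23, adjusted p 0.158, edgeR), and 12.5% of its exon bases are shared with Exosc9 on the other strand.

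The B cyclins, partners of CDK1 in mitosis, were lower with some overlap. Ccnb2 was at 3.66, 3.35 and 2.59 CPM in R/R lungs and at 3.22, 5.57 and 4.04 CPM in WT lungs, with a log2 fold change of -0.42 (SE 0.24), which was -0.18 without WT replicate 2. Ccnb1 had -0.62 (SE 0.27), and its value is uncertain because several processed pseudogenes match it closely. Ccnf, the cyclin F subunit of a ubiquitin ligase, was the mitosis gene nearest to 0, at 3.33, 2.93 and 3.71 CPM in R/R lungs and 3.34, 3.59 and 3.92 CPM in WT lungs. Its log2 fold change was -0.12 (SE 0.20) and -0.040 without R/R replicate 2, and the lungs overlapped. Cdc25c had 4 to 12 counts in each lung, too few for its log2 fold change of -0.53 (SE 0.50) to be told from 0. Foxm1, the transcription factor of the G2 genes, had a log2 fold change of -0.38 (SE 0.17), and its groups overlapped.

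The kinases Aurka, Aurkb and Plk1 and the Aurora B partner Birc5 (survivin) had a median of -0.57. Aurka, which matures the spindle poles, was at 2.77, 2.87 and 2.77 CPM in R/R lungs and at 3.95, 4.47 and 3.63 CPM in WT lungs. Aurka and Plk1 did not overlap between the groups, while Aurkb and Birc5 did. The spindle checkpoint genes Bub1, Bub1b and Ttk, which hold back anaphase until chromosomes are attached, had the median nearest 0 of the mitotic roles (-0.26). All 3 overlapped between the groups. Bub1 was at 3.61, 4.60 and 4.18 CPM in R/R lungs and at 3.52, 5.57 and 4.57 CPM in WT lungs (log2 fold change -0.15, SE 0.21), and it turned to 0.026 without WT replicate 2.

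Spindle motors and microtubule proteins had a median of -0.44, and 4 of 6 did not overlap (9.50% of all genes had R/R below WT throughout). Kif2c, which depolymerises microtubules at the kinetochore, was at 1.11, 1.20 and 1.41 CPM in R/R lungs and at 2.31, 2.37 and 1.81 CPM in WT lungs. The R/R lungs were all lower, and the log2 fold change was -0.80 (SE 0.27, adjusted p 0.191, edgeR), from 20 to 43 counts in a lung. Kif11, which pushes the spindle poles apart, had -0.62 (SE 0.21). Kif15, which backs up Kif11, was at 5.22, 3.83 and 3.95 CPM in R/R lungs and at 4.62, 6.24 and 3.75 CPM in WT lungs. Its groups overlapped at a log2 fold change of -0.17 (SE 0.22), and the value turned to 0.052 without WT replicate 2. The spindle proteins Tpx2 and Nusap1 did not overlap between the groups, and Hmmr did.

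Cytokinesis genes, which close off the daughter cells, had log2 fold changes from -0.59 (Anln) to -0.41 (Kif23), and 4 of 5 did not overlap (9.50% of all genes). Anln, or anillin, the scaffold of the contractile ring, was at 7.66, 6.10 and 6.18 CPM in R/R lungs and at 10.9, 9.93 and 9.13 CPM in WT lungs (SE 0.15, adjusted p 0.0735, edgeR). Ect2, which activates RhoA at the cleavage site, had -0.46 (SE 0.16), and Kif20a had -0.47 (SE 0.22). Prc1, which bundles the microtubules of the midzone, overlapped between the groups. In Kif20a, 29.3% of exon bases are shared with Cdc23 on the other strand, and the counting was blind to strand.

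Anaphase exit was represented by Cdc20 and Ube2c, the activator and the ubiquitin-conjugating partner of the complex that degrades cyclin B. Cdc20 was at 5.55, 5.14 and 5.42 CPM in R/R lungs and at 6.68, 10.2 and 7.14 CPM in WT lungs. Its groups did not overlap, with a log2 fold change of -0.58 (SE 0.18, adjusted p 0.159, edgeR) that was -0.36 without WT replicate 2. Ube2c had -0.58 (SE 0.23), also without overlap, but 22.8% of its exon bases are shared with Tnnc2 on the other strand. Per length, Cdc20 had the highest level of the mitosis genes, 12.1 TPM (mean of the 6 lungs), ahead of Mki67 (8.30 TPM) and Ccnb2 (8.26 TPM). TPM here are shares corrected for the length of all annotated exons of a gene, not of 1 transcript.

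On the replication side, the most abundant gene per length was Pcna, the sliding clamp of DNA polymerases, at a mean of 76.0 TPM, followed by Mcm4 (25.6 TPM) and Mcm6 (23.8 TPM). Pcna was at 56.0, 60.5 and 54.5 CPM in R/R lungs and at 53.6, 52.2 and 47.8 CPM in WT lungs. Every R/R lung was above every WT lung, but the log2 fold change of 0.15 (SE 0.07, 95% interval 0.0019 to 0.31) did not pass the adjusted test (adjusted p 0.344, edgeR), and a near-identical pseudogene makes its count uncertain.

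The MCM genes, subunits of the replicative helicase, had a median log2 fold change of 0.03, and in 6 of 6 the groups overlapped. Mcm6 was at 32.7, 35.7 and 36.9 CPM in R/R lungs and at 28.8, 34.0 and 29.8 CPM in WT lungs (log2 fold change 0.18, SE 0.09). Mcm4 was at 24.0, 28.8 and 31.3 CPM in R/R lungs and at 28.2, 26.5 and 24.6 CPM in WT lungs (0.08, SE 0.10, 95% interval -0.14 to 0.31), and it turned to -0.0046 without R/R replicate 3. Mcm7 had the lowest value of the complex, -0.21 (SE 0.10), so its subunits lay on both sides of 0.

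Licensing and firing genes also lay on both sides. Cdc6, which loads the helicase, was at 3.55, 2.45 and 2.77 CPM in R/R lungs and at 2.43, 2.59 and 1.76 CPM in WT lungs. It had the highest fold change of all members, 0.37 (SE 0.25), with overlap between the groups, and 0.20 without R/R replicate 1. Gins2, a helicase cofactor, was at 1.61, 1.32 and 1.47 CPM in R/R lungs and at 1.64, 2.26 and 2.11 CPM in WT lungs (log2 fold change -0.45, SE 0.27). Its groups did not overlap, but 67.3% of its exon bases are shared with Gse1 on the other strand, so this value is uncertain. Cdt1, Mcm10 and Cdc45, which load and fire origins, had -0.04, -0.14 and 0.06.

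The E2F factors had opposite signs. E2f1, the activator of replication genes, was at 15.2, 15.0 and 17.0 CPM in R/R lungs and at 13.5, 13.6 and 11.2 CPM in WT lungs, with each R/R lung above each WT lung (log2 fold change 0.30, SE 0.11, adjusted p 0.252, edgeR). E2f8, a repressor that ends the S phase programme, was at 1.89, 2.57 and 1.94 CPM in R/R lungs and at 2.31, 2.37 and 3.40 CPM in WT lungs. It overlapped between the groups, with -0.34 (SE 0.26), and -0.14 without WT replicate 3. Ccne1, or cyclin E1, starts S phase with CDK2, and was at 1.89, 1.67 and 1.65 CPM in R/R lungs and at 2.13, 2.15 and 1.93 CPM in WT lungs. The lungs did not overlap at a log2 fold change of -0.25 (SE 0.24), and Ccne2 had -0.04.

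The enzymes of nucleotide supply, Rrm1, Rrm2, Tyms and Tk1, ranged from -0.16 to 0.11. Uhrf1, which keeps DNA methylation at the fork, had -0.05, and Chaf1a, which places histones on new DNA, had 0.13. These 6 genes all overlapped between the groups. Besides Pcna and Ccnb1, transcripts or pseudogenes nearly identical to Cdc6, Mcm7, Rrm2, Tyms, Uhrf1, Ndc80 and Cdc20 make those counts less certain. Chaf1a shares 52.5% of its exon bases with Ubxn6 on the other strand.

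Further cell cycle genes outside the 54 were lower in mitosis as well, although 0 of them passed the adjusted test in edgeR in either direction. At an unadjusted p of 0.05, 12 of 43 other mitotic genes were lower (7.68% of all genes) and 1 was higher (6.54% of all genes). For the other replication genes it was 3 of 40 lower, a share near that of all genes. Of 43 other mitotic genes tested, 39 had a log2 fold change below 0, with a median of -0.43, and in 11 the R/R lungs lay below every WT lung (9.50% of all genes). The lowest were Shcbp1 (-1.09, SE 0.41) and Depdc1a (-1.08, SE 0.38), and the highest were Pbk (0.34, SE 0.34) and the chromokinesin Kif4 (0.23, SE 0.23). Of 40 other replication genes, 21 were below 0, with a median of -0.003. The highest were Tipin (0.24, SE 0.12) and Gins3 (0.24, SE 0.20), which act at the fork.

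**Figure D4:**
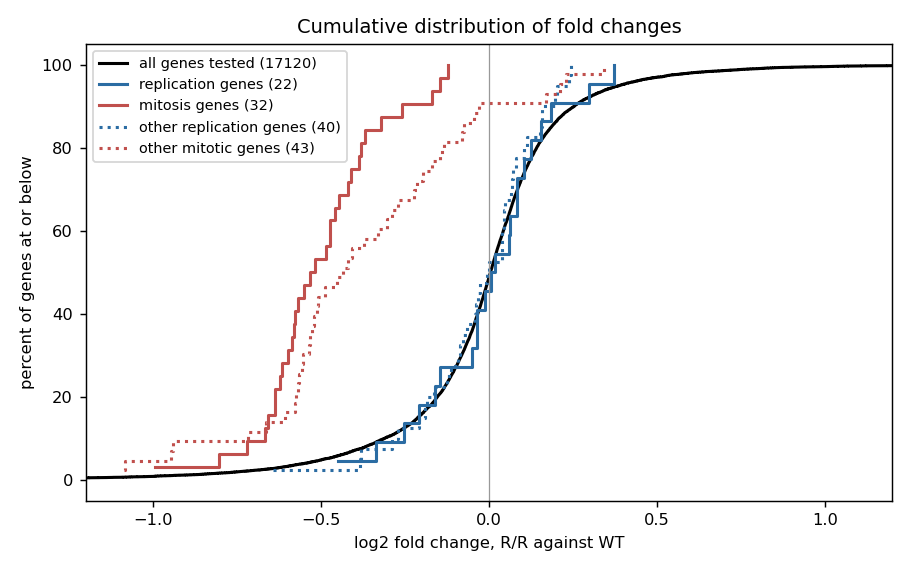
Percent of genes at or below each log2 fold change (x axis) for all 17120 genes tested, the 22 replication and 32 mitosis genes, and the 40 other replication and 43 other mitotic genes (dotted). The replication curves follow that of all genes, whereas both mitotic curves lie to the left of it.

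The lists of upstream regulators had medians closer to 0 than that of the mitosis genes. The 11 drivers of G1 had a median of -0.11, with 7 below 0. At an unadjusted p of 0.05, 3 of 11 were lower (7.68% of all genes) and 0 were higher (6.54% of all genes). Ccnd1, or cyclin D1, was at 138, 139 and 160 CPM in R/R lungs and at 160, 177 and 174 CPM in WT lungs (log2 fold change -0.22, SE 0.07, adjusted p 0.160, edgeR), and E2f3 had -0.25 (SE 0.11). At the other end were Skp2 (0.07, SE 0.21) and Cdk4 (0.02, SE 0.06). The 10 subunits of the DREAM and MMB complexes, which repress and activate cell cycle promoters, had a median of 0.05, from -0.25 (Lin9) and -0.14 (E2f4) to 0.13 (Lin52) and 0.22 (Mybl2).

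The 16 brakes on the cycle had a median of -0.07, with 13 below 0. The antiproliferative gene Btg2 was at 148, 162 and 148 CPM in R/R lungs and at 120, 129 and 131 CPM in WT lungs, and did not pass the adjusted test (log2 fold change 0.27, SE 0.06, adjusted p 0.0537, edgeR). Cdkn2a, the Ink4a and Arf locus, had 0.56 (SE 0.35). The lowest brakes were Trp53inp1 (-0.22, SE 0.07) and Cdkn2d (-0.19, SE 0.11).

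Lymphocyte markers differed in the same direction as the mitosis genes. All 8 of 8 B cell markers were lower in R/R lungs, 4 of them past the adjusted test (1.10% of all genes), and their summed level was 103 to 138 CPM in R/R lungs and 182 to 229 CPM in WT lungs. All 8 of 8 T cell markers were lower too, 0 past the adjusted test, at 38.4 to 46.7 CPM against 56.4 to 68.1 CPM. In WT replicates 1, 2 and 3 the B cell sums were 229, 182 and 183 CPM and the T cell sums 57.8, 56.4 and 68.1 CPM. The part of these cells in the result was not tested.

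Of 5 thymocyte markers only Cd8b1 could be tested, with Rag2 at 0 counts in every lung and at most 7 counts of Rag1, Dntt or Ptcra in any lung. Cd8b1 was at 3.83, 3.41 and 2.71 CPM in R/R lungs and at 4.98, 4.91 and 7.96 CPM in WT lungs. Its log2 fold change was -0.84 (adjusted p 0.109, edgeR). In the list of neutrophils and their precursors, Mpo, Elane and Ctsg had at most 2 counts in any lung, whereas Camp reached 8, Prtn3 17, Ngp 18 and Ltf 122 counts. Of 4 germinal centre B cell markers 2 could be tested (median -0.07), and Rgs13 had at most 1 count in any lung. Of 8 erythroid precursor markers 4 could be tested, with summed levels of 123 to 159 CPM in R/R and 128 to 161 CPM in WT lungs. Most of the sum was Tfrc (log2 fold change 0.30), the 1 tested marker above 0. The other 3 were below 0. Among them Alas2 (-0.67) was at 20.9, 33.6 and 53.0 CPM in R/R lungs and 55.2, 75.6 and 39.6 CPM in WT lungs.

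Of the resident cells, 8 endothelial markers had a median of -0.11, with summed levels of 4680 to 4890 CPM in R/R lungs and 4719 to 5308 CPM in WT lungs. All 7 of 7 alveolar macrophage markers were higher in R/R lungs, 2 past the adjusted test (0.648% of all genes), at 818 to 935 CPM against 512 to 710 CPM. The alveolar type 2 markers, among them surfactant genes, were at 22653 to 23898 CPM in R/R and 17793 to 22100 CPM in WT lungs, and 8 of 8 were above 0. Neutrophil markers (7 of 12 tested, 7 below 0) were at 68.3 to 96.0 CPM in R/R and 70.3 to 194 CPM in WT lungs, with WT replicate 2 as low as the R/R lungs. Cardiac muscle markers had a summed level of 27.5 ± 18.8 CPM (SD, n = 3) in R/R lungs and 78.7 ± 69.3 CPM (SD, n = 3) in WT lungs, with WT replicate 2 the highest at 146 CPM. The median of the monocyte list was -0.13, of plasma cells -0.21, of alveolar type 1 cells 0.06, of club cells -0.09, of multiciliated cells -0.09, of fibroblasts -0.05 and of mesothelium 0.79. In these lists Nr4a1 (monocytes), Aqp5 (alveolar type 1 cells) and Lrrn4 (mesothelium) passed the adjusted test, all higher in R/R lungs. Fibroblast sums were 2432 to 2647 CPM in R/R and 3003 to 3106 CPM in WT lungs, without overlap. The largest part was Npnt, at 1303, 1287 and 1069 CPM in R/R lungs and at 1612, 1747 and 1463 CPM in WT lungs. All other fibroblast markers overlapped between the groups. Fibroblast genes ranged from -0.40 (Npnt) to 0.43 (Col14a1). Monocyte sums were 1799 to 1843 CPM in R/R and 1865 to 2025 CPM in WT lungs. Most of each sum was Ace (log2 fold change -0.14), which overlapped between the groups. Of 8 monocyte markers 6 were below 0 and 2 above, among them Csf1r at -0.05 and Nr4a1 at 0.76. The part of any of these cell types in the mitosis result was not tested.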

How the data were processed

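RNA of 6 lungs was sequenced as paired reads of 150 bp. The authors aligned the reads to GRCm38 (mm10) with HISAT2 2.1.0 and deposited raw read counts per gene from featureCounts 2.0.1 with GENCODE M25, counted over exons without strand and without multi-mapping pairs. 1 deposited column was entered as an expected count in the records of this work, since an automatic check misread a comment line. Its values are whole raw counts, and none was rounded. The sources differ on extraction (Trizol or RNeasy) and on the featureCounts version. The submitters' processing notes also name DESeq2. All 6 columns were mapped to lungs by their labels, and 0 were left unmapped.

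Symbols were matched by identifier for 55141 of 56262 genes. Counts were filtered with edgeR 4.0.16 filterByExpr (minimum count 10, total 15), normalised with TMM and fitted by its quasi-likelihood functions (glmQLFit, then glmQLFTest) in R 4.3.3, with Benjamini-Hochberg adjustment over 17120 genes. CPM are relative to each lung's total, so they are shares and not amounts. 1 count was worth 0.0552 to 0.0607 CPM. The F statistic of each gene gave the standard error of its log2 fold change. The biological coefficient of variation was 8.62%. Single genes were also compared by an exact two-sided permutation test. The fit was first tested on simulated data. The 3 lungs of a group were described as biological replicates.

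The 54 genes and all lists were chosen with earlier results of these data known, so no list was tested. Named with values in every lung were called genes, the 3 highest and 3 lowest fold changes and 3 highest levels per length in each phase, and Mki67, Top2a, Cdk1 and Pcna. From the other cell cycle lists came called genes and the 2 highest and 2 lowest. Some genes under this rule are not reported here. Aurka, Anln and others outside this rule were named after their values were seen. Close copies were sought with BLAST+ 2.17.0 (95% identity over 300 bases), which found a match on the same strand for 9 members, and 10 members share over 10% of exon bases with another gene.

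Same-numbered R/R and WT lungs did not deviate together (correlations across genes of -0.014, -0.004 and -0.015). With so few lungs in a group, this check cannot tell whether the numbers pair the lungs. With the replicate number as a block, 446 genes were called in edgeR, against 300 without it. Replicates of a group differed by more than counting noise (chi-square per degree of freedom 5.22 to 8.31). The fit was repeated with limma 3.58.1 (voom), the exact test of edgeR, DESeq2 1.42.0, other scalings and filters, the replicate block and each lung left out.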

Additional observations from a re-analysis of the deposited data

How the results depend on the processing

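The number of mitosis or replication genes called lower was 2, and it was 4 with DESeq2, 4 with edgeR's exact test, 7 without a filter on low counts and 4 at an adjusted p of 0.1. Leaving out 1 lung gave 0 to 4, with 4 (Anln, Cenpf, Mki67 and Top2a) without WT replicate 3 and 0 without any other lung. With the replicate block it was 3, Cenpf being added, and the block changed no other call among the members named with values in every lung under the rule. The cause was not tested. Genes called in all numbered 300, and 531 with DESeq2, 630 with the exact test, 1109 without a filter, 446 with the block, 251 with limma-voom and 65 to 621 with 1 lung left out. No member was called higher under any of these settings. With 1 lung left out, the log2 fold change of Bub1 ranged from -0.30 to 0.026, that of Kif15 from -0.33 to 0.052 and that of Mcm4 from -0.0046 to 0.18; Bub1 and Kif15 turned positive without WT replicate 2, and Mcm4 turned negative without R/R replicate 3. Among values that kept their sign, leaving out 1 lung moved Ccnb2 to -0.18 and Cdc20 to -0.36 (WT replicate 2), Ccnf to -0.040 (R/R replicate 2), Cdc6 to 0.20 (R/R replicate 1) and E2f8 to -0.14 (WT replicate 3). The median of the mitosis genes stayed between -0.60 and -0.38 over these tools, scalings, filters and left-out lungs, and the gap to the replication median between 0.45 and 0.57. A filter of 1 CPM left 53 members, without Cdc25c. The counts of genes without WT replicate 2 given in the report were chosen after seeing the data. Counts were low for some members, such as 16 to 28 in a lung for Ttk.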
